A study of Mus musculus with 21 samples.

Results

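Insulin-like growth factors (IGFs), their receptors and their binding proteins were followed through the notochord and mesoderm progenitor libraries of a mouse study. The 10 genes were taken by symbol from an expression table of 23983 genes. They comprise the ligands *Igf1* and *Igf2*, the non-coding RNA *H19*, the receptors *Igf1r* and *Igf2r*, and the binding proteins *Igfbp2*, *Igfbp3*, *Igfbp4*, *Igfbp5* and *Igfbp7*. All 10 were found, and all 10 are given here in each of the 9 RNA-seq libraries together with the T and Foxa2 ChIP-seq peaks around them.

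The study compared notochord progenitors (NotoPs) with paraxial mesoderm progenitors (MPs) and trunk notochord, and modelled the progenitors in culture. Embryonic cells came from pooled embryos made with a modified F1G4 (C57BL/6N x SV129) mouse embryonic stem cell line. That line carries 3 reporters on bacterial artificial chromosomes, T::H2B-Venus, Noto::H2B-mCherry and Foxa2::H2B-mTurquoise, and all embryonic groups share them. At E8.5 (Theiler stage 12) and E9.5 (Theiler stage 16), NotoPs were sorted as Noto+/T+/Foxa2+ and MPs as T+/Noto-/Foxa2- from caudal ends, and trunk notochord as T+/Noto+/Foxa2+ from the trunk. The study lists high Foxa2 signal for E9.5 NotoPs and both trunk sorts, but not for E8.5 NotoPs, and high T signal for MPs. Trunk embryos spanned a wider range of somite stages than NotoP embryos. Ratios of trunk to NotoPs at E8.5, and of E9.5 to E8.5 NotoPs, thus also hold a difference of gate. The parts of gate and somite range were not tested. Cultured cells came from another F1G4 derivative with TRE::Foxa2-IRES-EGFP in the Rosa26 locus, T::H2B-mCherry-T2A-irTA and Noto::H2B-mTurquoise, so that doxycycline induces Foxa2 only where the T promoter is active. All cultures received bFGF (10 ng/ml) and, from day 2, the Wnt pathway activator CHIR99021 (5 µM is stated for NMPdiff). NMPdiff cells, a culture equivalent of neuro-mesodermal progenitors, were T+/Noto- at day 3. MPdiff cells were T+/Noto- at day 4 without doxycycline, and NotoPdiff cells were Noto+/T+ at day 4 after 1 ng/ml doxycycline from day 2. ChIP-seq for T and Foxa2 used whole day 4 cultures with doxycycline, not sorted cells.

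IGF ligands are secreted growth factors. Both signal through the receptor tyrosine kinase encoded by *Igf1r*, while the *Igf2r* product binds IGF2 and carries it to the lysosome. Secreted IGF binding proteins hold the ligands outside the cell and can restrain or prolong their action. *Igf2* and *H19* are neighbouring imprinted genes, expressed from the paternal and the maternal copy, and *Igf2r* is imprinted in the mouse as well.

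Every group has 1 library, so no difference has a replicate check, and no SD or test is given. Values are FPKM, a fragment count scaled by transcript length and by library size. Low values of the table fall on steps of 1 fragment, from which the relative depth of libraries and, for 8 of the 10 genes, the smallest whole numbers of fragments behind the values could be read. Relative to E8.5 NotoPs, depth was 1.46 in E9.5 NotoPs, 0.429 and 0.397 in E8.5 and E9.5 trunk notochord, 0.363 in E8.5 MPs and 2.06 in E9.5 MPs. Relative to NotoPdiff, it was 1.36 in NMPdiff and 1.12 in MPdiff. The E8.5 MP library lists 13945 genes at 0, the most of all 9. Ratios are given with 95% intervals from these fragment numbers (exact binomial), which cover counting error only. Embryonic and cultured libraries were sequenced on different instruments, so their levels are set side by side without a ratio. Where 1 population lies above or below others at both stages, the share of all genes doing so was not counted.

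The sort labels were set beside marker genes. Every sort used the *Noto* reporter, so the *Noto* level is not an independent check. Of 8 notochord markers, *T*, *Noto* and *Foxa2* among them, 8 reached 1 FPKM in both NotoP libraries, E8.5 trunk notochord and NotoPdiff. E9.5 trunk notochord reached it for 7, with *Chrd* at 0, NMPdiff for 5, and both MP libraries and MPdiff for 3. *Shh*, not sorted on, was at 161 and 178 FPKM in NotoPs at E8.5 and E9.5, and listed at 0 and at 0.343 in MPs. *Noto* was at 152 and 164 FPKM in NotoPs at E8.5 and E9.5, at 27.5 and 20.8 in trunk notochord and listed at 0 in both MP libraries. In culture *Noto* was at 22.5 FPKM in NotoPdiff, 0.515 in NMPdiff and listed at 0 in MPdiff. Of 8 mesoderm progenitor markers, 8 reached 1 FPKM in each of E8.5 MPs, E9.5 MPs and MPdiff, and 2 (*Pcdh8* and *Foxc2*) in E9.5 trunk notochord. E8.5 NotoPs reached 1 FPKM for 8 of these markers as well, with *Tbx6* at 44.0 and *Hes7* at 74.3 FPKM. E9.5 NotoPs did so for 6 of them (*Tbx6* at 27.8 FPKM) and NotoPdiff for 7 (*Tbx6* at 21.3 FPKM).

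**Figure D1:**
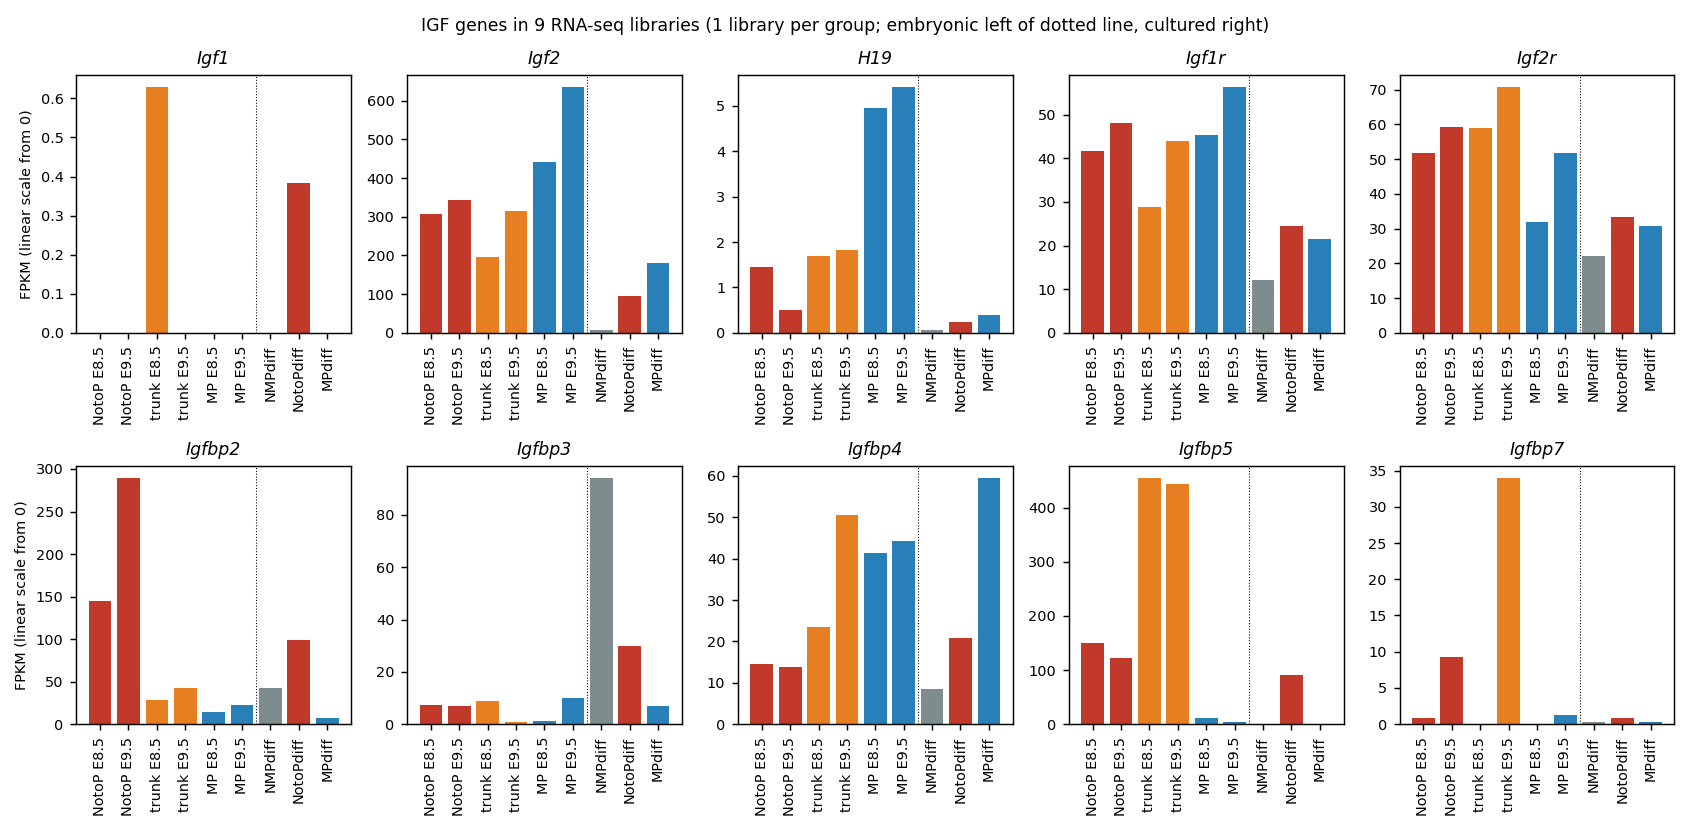
Bars give the FPKM value of each of 10 IGF genes (1 panel a gene, own linear axis from 0) in 9 libraries, embryonic to the left of the dotted line and cultured to the right, with NotoP cells in red, trunk notochord in orange, MP cells in blue and NMPdiff in grey. *Igf2* was highest in E9.5 MPs at 636 FPKM, *Igfbp2* in E9.5 NotoPs at 289 FPKM and *Igfbp5* in E8.5 trunk notochord at 455 FPKM.

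*Igf2*, the main fetal ligand, was the most abundant of the ligands and receptors in all 6 embryonic libraries. It measured 307 FPKM in E8.5 NotoPs and 345 in E9.5 NotoPs, 443 and 636 in MPs, and 195 and 315 in trunk notochord. Each embryonic value lay above at least 98.9% of the genes of its library. MPs were above NotoPs at both stages, and NotoPs were above trunk notochord at both stages. The NotoP to MP ratio was 0.695 at E8.5 and 0.542 at E9.5, both within 3-fold. In culture *Igf2* was at 7.71 FPKM in NMPdiff, 95.8 in NotoPdiff and 181 in MPdiff. The day 4 cultures were 12.4-fold (NotoPdiff) and 23.5-fold (MPdiff) above day 3 NMPdiff, and the NotoPdiff to MPdiff ratio of 0.529 was on the same side of 1 as in the embryo. No whole fragment numbers were found for *Igf2*, so its ratios carry no interval. The gene lies at chr7:142650766-142666816 on the minus strand (mm10) and overlaps the protein-coding gene *Gm49394*, the microRNA gene *Mir483* and the antisense gene *Igf2os*. The alignment used strand, but whether reads of these genes were kept apart was not tested. No T or Foxa2 peak lay within 100 kb of its start. The interval bounded by its neighbouring protein-coding genes held 1 Foxa2 peak beyond that window, the one described below for *H19*, and no T peak.

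*Igf1*, the ligand of later growth, was listed at 0 in 7 of 9 libraries. The exceptions were E8.5 trunk notochord at 0.630 FPKM and NotoPdiff at 0.383 FPKM. No ratio was formed for it. The gene lies at chr10:87858265-87937042 (plus strand, with the antisense gene *Igf1os* overlapping), and 2 Foxa2 peaks stood 50.5 kb and 74.9 kb upstream of its start, with 5.88-fold and 4.75-fold enrichment.

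*H19* stayed low in every library. It measured 1.44 and 0.493 FPKM in NotoPs, 4.96 and 5.42 in MPs, and 1.68 and 1.82 in trunk notochord, at E8.5 and E9.5 respectively. At both stages MPs had the highest of these values. These values rest on 4 and 2 fragments in NotoPs, 5 and 31 in MPs, and 2 and 2 in trunk notochord. The ratio of MPs to NotoPs was 3.44 at E8.5 (interval 0.740 to 17.3) and 11.0 at E9.5 (2.80 to 94.9), so the E8.5 difference was not detectable at this depth. Cultured cells had less than 0.5 FPKM, with 0.0548 in NMPdiff, 0.242 in NotoPdiff and 0.382 in MPdiff. *H19* thus stood far below *Igf2* everywhere, with *Igf2* to *H19* ratios between 89.2 (E8.5 MPs) and 700 (E9.5 NotoPs).

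*H19* lies at chr7:142575529-142578143 on the minus strand, and its start is 88673 bp from that of *Igf2*. A Foxa2 peak of 8.18-fold enrichment lay 17.4 kb downstream of the *H19* start, between *Mrpl23* and *Igf2* as the nearest protein-coding genes. A T peak of 12.8-fold enrichment lay 77.2 kb downstream, in introns of *Prr33* and *Tnnt3*.

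The receptors varied far less than the binding proteins. *Igf1r* measured 41.7 and 48.1 FPKM in NotoPs, 45.3 and 56.4 in MPs, and 28.8 and 43.9 in trunk notochord, at E8.5 and E9.5. NotoPs stood close to MPs, with ratios of 0.921 at E8.5 (interval 0.784 to 1.09) and 0.852 at E9.5 (0.784 to 0.927). In culture *Igf1r* was at 12.1 FPKM in NMPdiff, 24.5 in NotoPdiff and 21.4 in MPdiff. The day 4 cultures were thus above NMPdiff, by 2.03-fold in NotoPdiff (1.95 to 2.12) and 1.77-fold in MPdiff (1.70 to 1.85).

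*Igf1r* (chr7:67952827-68233668, plus strand) had 5 Foxa2 and 2 T peaks within 100 kb, among them one of 2 places in these windows where both factors had a peak. The shared peak lay in an intron, 43.8 kb downstream of the start. Its Foxa2 enrichment of 21.9-fold exceeded that of 99.8% of all Foxa2 peaks, while its T enrichment was 7.22-fold, and the 2 summits were 55 bp apart. It is shown because it is the strongest Foxa2 peak near any of the 10 genes. The sequence covers 100 bp on either side of the Foxa2 summit (chr7:67996534-67996734, plus strand, mm10), with matches to the forkhead motif TGTTTAC, on either strand, in capitals.
Igf1r intron peak: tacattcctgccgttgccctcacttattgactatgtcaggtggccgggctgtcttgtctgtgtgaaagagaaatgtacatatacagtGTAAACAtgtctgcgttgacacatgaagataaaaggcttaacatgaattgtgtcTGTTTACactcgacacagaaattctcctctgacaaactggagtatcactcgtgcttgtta
The window holds 2 matches in opposite orientation and none to the T motif AGGTGTGA or to its inner part GGTGTG. A match to TGTTTAC occurs in 13.8% of all Foxa2 peak windows of this length.

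*Igf2r* measured 51.9 and 59.4 FPKM in NotoPs, 32.0 and 51.7 in MPs, and 58.9 and 70.8 in trunk notochord. All 3 embryonic populations were higher at E9.5 than at E8.5, by 1.14-fold in NotoPs (1.02 to 1.28), 1.62-fold in MPs (1.33 to 1.99) and 1.2-fold in trunk notochord (1.006 to 1.44). The ratio of NotoPs to MPs was 1.62 at E8.5 (1.32 to 2.01) and 1.15 at E9.5 (1.05 to 1.26). Cultured cells had 22.2 FPKM in NMPdiff, 33.3 in NotoPdiff and 30.6 in MPdiff. *Igf2r* exceeded *Igf1r* in the Noto+ embryonic libraries by 1.23-fold to 2.04-fold, whereas in MPs the order was the reverse, with *Igf2r* to *Igf1r* ratios of 0.706 and 0.916, and no interval was computed for these. *Igf2r* (chr17:12682406-12769664, minus strand, with the antisense RNA gene *Airn* overlapping) had 1 T peak of 5.17-fold enrichment, 29.2 kb into the gene, and 5 Foxa2 peaks. The strongest of these, with 13.8-fold enrichment, lay 20.9 kb into the gene over an *Igf2r* exon.

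*Igfbp2* was higher in NotoPs than in both other embryonic populations. It measured 144 FPKM in E8.5 NotoPs and 289 in E9.5 NotoPs. MPs had 13.7 and 22.7 FPKM, and trunk notochord 28.2 and 43.0. At both stages the NotoP value was thus the highest. The NotoP to MP ratio was 10.5 at E8.5 (203 against 7 fragments, interval 5.02 to 26.5) and 12.7 at E9.5 (9.85 to 16.7). Trunk notochord relative to NotoPs was at 0.195 (0.112 to 0.321) and 0.149 (0.0945 to 0.223). Within NotoPs the E9.5 value was 2.01-fold the E8.5 value (1.71 to 2.36). In culture *Igfbp2* was at 99.2 FPKM in NotoPdiff, 42.4 in NMPdiff and 6.72 in MPdiff. NotoPdiff was 14.8-fold above MPdiff (12.8 to 17.1), and MPdiff was at 0.158 of NMPdiff (0.136 to 0.183).

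*Igfbp2* (chr1:72824503-72852474, plus strand) had 6 Foxa2 peaks within 100 kb and no T peak.

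*Igfbp5*, which neighbours *Igfbp2* tail to tail with 5457 bp between their ends, exceeded its MP level by at least 3-fold in NotoPs of either stage, as *Igfbp2* did. It measured 151 and 122 FPKM in NotoPs, 10.6 and 4.61 in MPs, and 455 and 445 in trunk notochord. Trunk notochord was highest and MPs lowest at both stages, and the share of all genes in this order was not counted. The NotoP to MP ratio was 14.2 at E8.5 (936 against 24 fragments, interval 9.47 to 22.2) and 26.4 at E9.5 (1107 against 59 fragments, 20.3 to 34.9). Trunk notochord was 3.02-fold (2.77 to 3.29) and 3.65-fold (3.36 to 3.97) above NotoPs, the opposite order to that of *Igfbp2*. The ratio of *Igfbp5* to *Igfbp2* was accordingly 1.05 and 0.421 in NotoPs and 16.1 and 10.3 in trunk notochord. In culture *Igfbp5* was at 90.5 FPKM in NotoPdiff, 0.484 in NMPdiff and 0.223 in MPdiff. NotoPdiff stood 406-fold above MPdiff (10885 against 30 fragments, 284 to 603).

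*Igfbp5* (chr1:72857932-72874884, minus strand) had 2 Foxa2 peaks within 100 kb and no T peak, and both also lie in the window of *Igfbp2*. The stronger, of 9.34-fold enrichment, lay 65.3 kb downstream of the *Igfbp5* start and 14.9 kb upstream of the *Igfbp2* start. Its sequence is shown as the strongest peak in the *Igfbp5* window (chr1:72809460-72809660, plus strand).
Igfbp2 and Igfbp5 peak: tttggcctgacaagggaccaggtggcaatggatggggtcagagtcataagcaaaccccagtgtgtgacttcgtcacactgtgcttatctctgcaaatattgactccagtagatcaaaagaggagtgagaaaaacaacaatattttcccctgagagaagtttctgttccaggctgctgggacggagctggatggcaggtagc
This window holds no exact match to TGTTTAC, to the related TATTTAC or to the T motifs. Other variants of the forkhead motif were not searched, so the window may hold one. The weaker peak, of 5.40-fold enrichment 38.7 kb upstream of *Igfbp5*, holds 1 match each to TGTTTAC and TATTTAC.

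**Figure D2:**
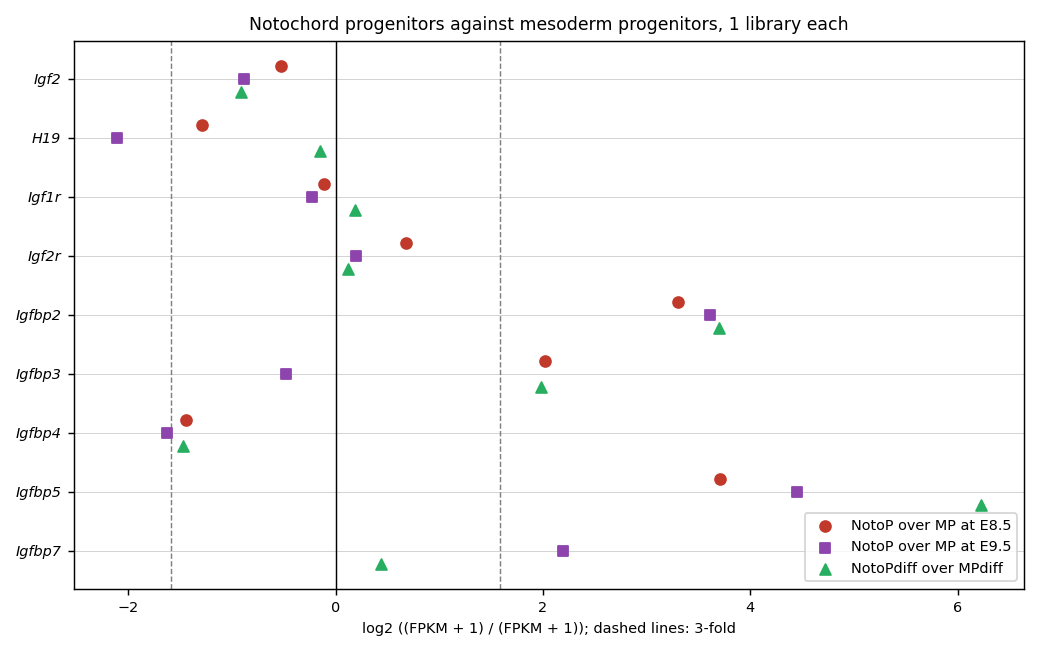
Points give log2 ratios of FPKM + 1 between notochord and mesoderm progenitors for 9 IGF genes, with circles for E8.5, squares for E9.5 and triangles for culture, and dashed lines at 3-fold. *Igfbp2* and *Igfbp5* lie beyond the upper line in all 3 comparisons, from 3.31 to 3.70 and from 3.70 to 6.23, and *Igfbp4* lies near the lower line in all 3.

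*Igfbp4* showed the opposite side. It measured 14.6 and 13.7 FPKM in NotoPs, 41.5 and 44.3 in MPs, and 23.4 and 50.6 in trunk notochord. At both stages the NotoP value was the lowest. The NotoP to MP ratio was 0.352 at E8.5 (interval 0.210 to 0.591) and 0.310 at E9.5 (0.218 to 0.431). The log2 ratios of FPKM + 1 were −1.44 and −1.62, so only the E9.5 value passed 3-fold. In culture *Igfbp4* was at 20.9 FPKM in NotoPdiff, 59.5 in MPdiff and 8.5 in NMPdiff, with a NotoPdiff to MPdiff ratio of 0.351 (0.325 to 0.378). MPdiff was 7.00-fold above NMPdiff (6.35 to 7.72). *Igfbp4* (chr11:99041244-99054392, plus strand) had 3 T and 4 Foxa2 peaks within 100 kb. The strongest T peak, of 11.2-fold enrichment, lay 77.3 kb upstream in an intron of *Rara*, and the strongest Foxa2 peak, of 6.05-fold, 51.0 kb downstream of the start. None of these 7 peaks lay in the interval bounded by the neighbouring protein-coding genes.

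*Igfbp3*, whose product carries most circulating IGF in adults, was low in the embryo. It measured 7.34 and 6.86 FPKM in NotoPs, 1.06 and 9.92 in MPs, and 9.01 and 0.973 in trunk notochord. The E8.5 MP and E9.5 trunk notochord values rest on 1 fragment each. The NotoP to MP ratio was 6.90 at E8.5 (interval 1.10 to 287) and 0.691 at E9.5 (0.415 to 1.12), so the E8.5 difference past 3-fold rests on that 1 fragment. In culture *Igfbp3* was highest of all libraries in NMPdiff at 94.1 FPKM, followed by NotoPdiff at 29.8 and MPdiff at 6.78. NotoPdiff was at 0.317 of NMPdiff (0.299 to 0.335) and MPdiff at 0.0721 (0.0649 to 0.0800), and NotoPdiff was 4.39-fold above MPdiff (3.92 to 4.93).

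*Igfbp3* (chr11:7206086-7213923, minus strand) had the other place where both factors had a peak. It lay 89.4 kb upstream, between *Igfbp3* and *Tns3*, with 18.4-fold T enrichment and 19.1-fold Foxa2 enrichment and summits 27 bp apart. This T peak was the strongest near any of the 10 genes, and 95.7% of all T peaks were weaker. Its sequence around the Foxa2 summit (chr11:7303217-7303417, plus strand) holds 1 match to TGTTTAC and none to the T motifs.
Igfbp3 upstream peak: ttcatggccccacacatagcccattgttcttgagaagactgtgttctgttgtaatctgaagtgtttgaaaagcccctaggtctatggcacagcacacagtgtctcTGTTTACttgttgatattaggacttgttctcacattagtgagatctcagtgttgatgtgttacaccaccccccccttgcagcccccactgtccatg
A further T peak of 12.3-fold enrichment stood 58.8 kb upstream of *Igfbp3*, and a Foxa2 peak of 7.64-fold stood 91.8 kb downstream of its start in an intron of *Adcy1*.

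*Igfbp7*, which encodes a secreted protein with only weak affinity for IGFs, was found mainly at E9.5. It measured 0.842 and 9.20 FPKM in NotoPs, was listed at 0 and measured 1.22 in MPs, and was listed at 0 and measured 34.0 in trunk notochord. These values rest on 1 and 16, 0 and 3, and 0 and 16 fragments. At E9.5, NotoPs were 7.51-fold above MPs (interval 2.15 to 40.2) and trunk notochord 3.69-fold above NotoPs (1.73 to 7.88). E9.5 NotoPs were 10.9-fold above E8.5 NotoPs (1.70 to 458). In trunk notochord the E9.5 level was at least 5.76-fold higher when E8.5 is set to a floor of 3 fragments (5.89 FPKM), and the interval from 16 against 0 fragments had its lower end at 4.17-fold. Cultured cells had less than 1 FPKM, with 0.288 in NMPdiff, 0.826 in NotoPdiff and 0.349 in MPdiff. *Igfbp7* (chr5:77349240-77408041, minus strand) had 1 T peak of 6.09-fold enrichment 49.6 kb upstream. It had 4 Foxa2 peaks, the strongest of 13.6-fold in an intron 30.4 kb from the start.

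The make-up of the binding protein transcripts therefore differed between populations. As shares of the summed FPKM of the 5 genes, *Igfbp2* and *Igfbp5* made up 45.4% and 47.4% in E8.5 NotoPs and 65.6% and 27.6% in E9.5 NotoPs. In trunk notochord *Igfbp5* alone made up 88.2% and 77.6%. In MPs *Igfbp4* was the leading gene, with 62.0% and 53.5%. NotoPdiff resembled E8.5 NotoPs in the 2 leading genes, with 41.1% *Igfbp2* and 37.5% *Igfbp5*, although *Igfbp3* made up a further 12.4%. In MPdiff *Igfbp4* made up 80.9%, and in NMPdiff *Igfbp3* made up 64.6%. The summed level was 318 and 441 FPKM in NotoPs, 515 and 573 in trunk notochord, and 66.8 and 82.8 in MPs. In culture it was 241 in NotoPdiff, 146 in NMPdiff and 73.5 in MPdiff.

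**Figure D3:**
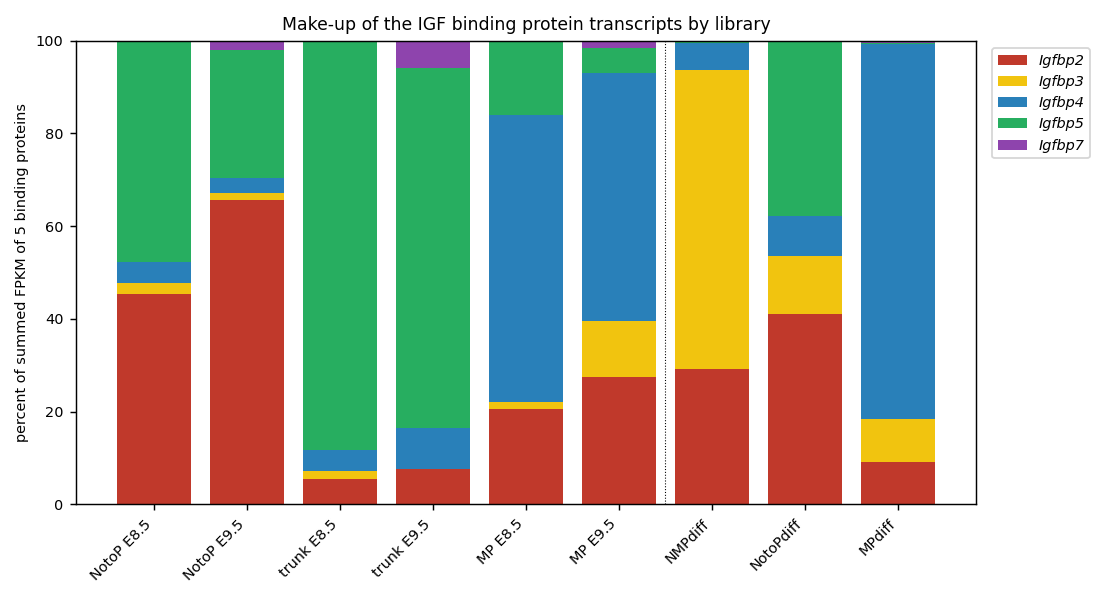
Stacked bars give the share of each of 5 IGF binding protein genes in their summed FPKM, in percent, in 9 libraries. *Igfbp2* (red) and *Igfbp5* (green) fill most of the NotoP and trunk notochord bars, *Igfbp4* (blue) leads in MP bars, and *Igfbp3* (yellow) leads in NMPdiff with 64.6%.

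Counted over all 10 genes, the notochord to mesoderm comparison gave 3 genes at least 3-fold higher in NotoPs at E8.5 (*Igfbp2*, *Igfbp3*, *Igfbp5*) and 0 lower, on the log2 scale of FPKM + 1. Of all 23983 genes, 8.83% were higher and 4.02% lower by that rule. At E9.5, 3 genes were higher (*Igfbp2*, *Igfbp5*, *Igfbp7*) and 2 lower (*H19*, *Igfbp4*), beside 2.63% and 1.11% of all genes. At both stages 2 genes were higher and 0 lower, beside 1.31% and 0.238%. With E9.5 MPs in place of the shallow E8.5 MP library, 2 genes (*Igfbp2* and *Igfbp5*) were higher in E8.5 NotoPs and 0 lower. In culture, 3 genes were higher in NotoPdiff than in MPdiff (*Igfbp2*, *Igfbp3*, *Igfbp5*) and 0 lower, beside 1.55% and 0.442% of all genes. Among genes with at least 5 FPKM in one of the libraries compared, the shares were larger, with 15.9% higher and 8.73% lower for E8.5, 5.16% and 1.89% for E9.5, plus 3.09% and 0.98% for culture. Among the genes just outside the 3-fold rule, *Igfbp4* stood at −1.44 at E8.5 and −1.47 in culture. Gut endoderm markers summed to more in NotoPs than in MPs in each comparison, but not all of them did so singly. The sum over the 7 of 8 genes in the table was 102.4 and 35.9 FPKM in NotoPs, 42.5 and 3.83 in MPs, 325 in NotoPdiff and 34.0 in MPdiff, with 5, 3, 4, 1, 5 and 4 markers at 1 FPKM or more. *Cdh1* and *Cldn6* made up most of the sum in E8.5 NotoPs, at 29.5 and 47.0 FPKM against 5.88 and 8.62 in MPs. At E8.5 *Epcam* (18.3 against 22.7 FPKM) and the definitive endoderm gene *Sox17* (3.58 against 5.37) were lower in NotoPs, and *Sox17* was listed at 0 in both populations at E9.5. In culture *Sox17* was at 7.46 FPKM in NotoPdiff and 0.545 in MPdiff. *Pyy* and *Nepn* were listed at 0 in all 6 of these libraries. The part of such cells in the differences was not tested.

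Trunk notochord differed from NotoPs in 1 higher (*Igfbp5*) and 1 lower gene (*Igfbp2*) at E8.5, beside 4.58% and 4.17% of all genes. At E9.5, 3 genes were higher (*Igfbp4*, *Igfbp5*, *Igfbp7*) and 2 lower (*Igfbp2*, *Igfbp3*), beside 4.33% and 5.17%. Both trunk libraries also held transcripts of visceral endoderm markers, which summed over 8 genes to 102.3 and 143 FPKM, beside 2.84 and 2.77 in NotoPs. Of these markers, 6 reached 1 FPKM in each trunk library and 1 in each NotoP library, and *Apom* and *Amn* were listed at 0 in all 4. The E8.5 MP library held them as well, with a sum of 138 FPKM and 7 markers at 1 FPKM or more, against 2.40 FPKM and 1 marker in E9.5 MPs. Fibroblast markers summed to 44.0 and 36.6 FPKM in trunk notochord and 9.88 and 7.15 in NotoPs, with *Fbln5* at 0 in all 4. *Col1a2* made up most of the trunk sums, at 29.5 and 20.3 FPKM. Of the 8 fibroblast markers, 5 and 6 reached 1 FPKM in trunk notochord and 4 and 2 in NotoPs. At E8.5 *Postn* was lower in trunk notochord than in NotoPs (4.11 against 4.52 FPKM). The part of other cells in the trunk and E8.5 MP values was not tested.

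Between E8.5 and E9.5 each gene that passed 3-fold had 0 or 1 fragment at one of the stages. In NotoPs 1 was higher at E9.5 (*Igfbp7*) and 0 lower, beside 2.30% and 1.99% of all genes. In MPs 1 was higher (*Igfbp3*) and 0 lower, beside 6.02% and 3.23%. In trunk notochord 1 was higher (*Igfbp7*) and 1 lower (*Igfbp3*), beside 4.28% and 5.79%. In culture, NotoPdiff had 2 genes above NMPdiff (*Igf2*, *Igfbp5*) and 1 below (*Igfbp3*), beside 1.31% and 0.796%. MPdiff had 2 above (*Igf2*, *Igfbp4*) and 2 below (*Igfbp2*, *Igfbp3*), beside 0.901% and 1.48%. Both comparisons share the NMPdiff library.

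**Figure D4:**
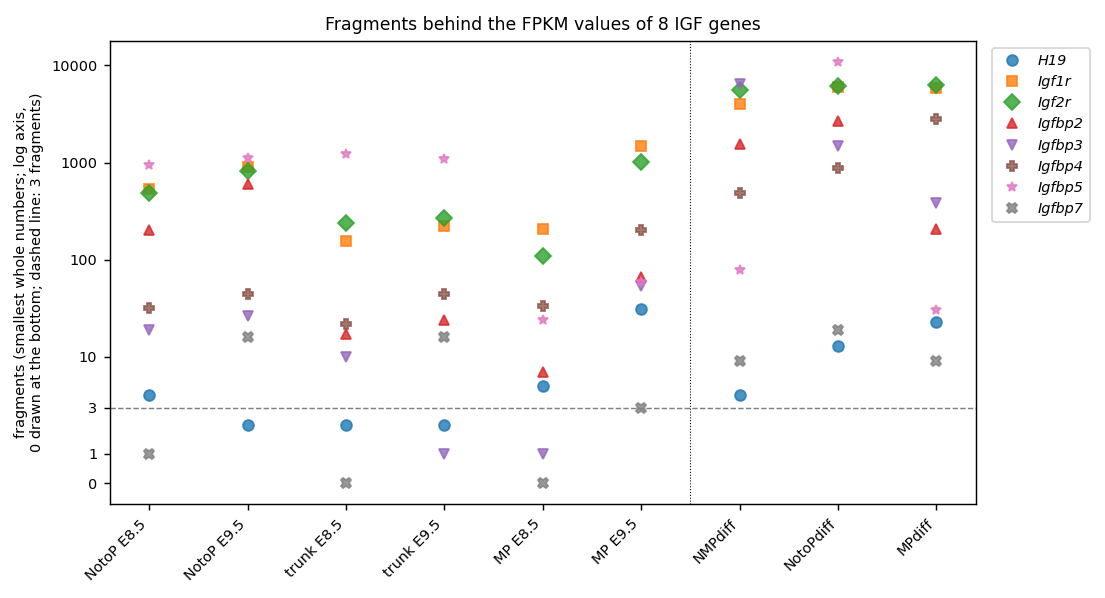
Points give, on a log axis, the smallest whole number of fragments behind each FPKM value of 8 IGF genes in 9 libraries, with 0 drawn at the bottom and a dashed line at 3 fragments. In the 6 embryonic libraries each has 1 or 2 of these genes at or below the line, whereas the 3 cultured libraries have none.

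The wider pathway was counted from a list of 37 other genes of insulin and IGF signalling. On the log2 scale of FPKM + 1, none was at least 3-fold apart between NotoPs and MPs in the same direction at both stages. By plain FPKM *Htra1* was (named after its values were seen). It had 11.1 FPKM in NotoPs against 1.27 in MPs at E8.5 (8.72-fold), and 1.90 against 0.449 at E9.5 (4.23-fold). Its log2 ratios of FPKM + 1 were 2.41 and 0.999. Trunk notochord had 68.0 and 72.3 FPKM of *Htra1*, NotoPdiff 5.87 and MPdiff 4.65. At E8.5 5 of 37 were higher in NotoPs and 0 lower, beside 8.83% and 4.02% of all genes (15.9% and 8.73% among those with at least 5 FPKM). At E9.5 1 of 37 was higher (*Htra3*) and 0 lower, beside 2.63% and 1.11%, so these counts were near the background. The median log2 ratio of the list was 0.23 at E8.5 and 0.24 at E9.5, where the median of all genes was 0. In culture 1 of 37 was higher in NotoPdiff and 0 lower, beside 1.55% and 0.442%, and the list's median was 0. That gene was *Htra3*, a secreted protease that can cleave IGF binding proteins, at 3.28 FPKM in NotoPdiff and 0.127 in MPdiff. In the embryo *Htra3* was at 0.687 and 2.58 FPKM in NotoPs and listed at 0 in both MP libraries and both trunk libraries.

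Of the 4 remaining ligand and receptor genes of the list, *Insr*, the insulin receptor, was the only one above 1 FPKM in any library, with 6.94 to 18.4 FPKM (named after its values were seen, as is the next gene). *Grb10*, an imprinted adaptor that binds the insulin and IGF1 receptors and dampens their signal, was the most abundant gene of the list in every library. It had 395 and 495 FPKM in NotoPs, 289 and 355 in MPs, and 522 and 592 in trunk notochord. Cultured cells had 123 FPKM in NMPdiff, 320 in NotoPdiff and 150 in MPdiff, so that Noto+ cells were above Noto- cells in both settings, although by less than 3-fold.

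Of 15 imprinted genes other than the members, 1 was at least 3-fold higher in NotoPs at both stages and 0 were lower, beside 1.31% and 0.238% of all genes. This was *Cdkn1c*, a cyclin-dependent kinase inhibitor that restrains growth. *Cdkn1c* measured 99.5 and 149 FPKM in NotoPs, 6.81 and 14.4 in MPs, and 256 and 185 in trunk notochord. At both stages the order was that of *Igfbp5*. In culture it was at 69.7 FPKM in NotoPdiff, 19.5 in MPdiff and 15.7 in NMPdiff. There, 1 imprinted gene was higher in NotoPdiff than in MPdiff (*Cdkn1c*) and 5 were lower, beside 1.55% and 0.442% of all genes, or 3.09% and 0.98% of those with at least 5 FPKM. The 5 were *Zim1* at 0.292 against 5.96 FPKM, the amino acid transporter *Slc38a4* at 8.05 against 42.5, *Peg3* at 43.1 against 172, *Mest* at 9.48 against 32.6, and *Phlda2*, a restrainer of placental growth, at 31.0 against 99.3. The median log2 ratio of the imprinted list in culture was −0.27, beside 0 for all genes.

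Likeness of pattern was described by Pearson's r of log2(FPKM + 1) over the 9 libraries, among 10942 genes with at least 5 FPKM in one of them. The nearest genes to *Igfbp5* were *Ddah1* (r = 0.97), *Gprc5c* (0.97) and *Scara3* (0.97), and to *Igfbp2* *Rnf185* (0.95), *Pik3cd* (0.91) and *Gpr56* (0.90). The nearest to *Igf2* were *Hoxa5* (0.97), *Igf2bp2* (0.95), whose product binds *Igf2* mRNA, and *Mllt3* (0.94). *Hoxa5* was also nearest to *Igf1r* (0.95), followed by *Syap1* and *Igsf3* (both 0.94). *Igf2r* was nearest to *Lrp1* (0.97), another endocytic receptor gene, and *Igfbp3* to *Vcl* (0.97). *Igfbp4* was nearest to *Tenm4* (0.93), *Igfbp7* to *Tff3* (0.97) and *H19* to *Nap1l4* (0.92). With 9 libraries, 3 of them on another instrument, such values are a description only.

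Peaks around the 10 genes were counted within 100 kb of the gene start. A T peak was found for 6 of 10 genes, beside 44.9% of the 22730 genes with a known position, and a Foxa2 peak for 9 of 10, beside 74.8%. A peak shared by both factors was found for 2 of 10, beside 9.30%. The windows held 10 different T peaks and 29 different Foxa2 peaks, with median enrichments of 8.46-fold and 8.18-fold, beside 7.45-fold and 7.19-fold over all 6875 T and 22684 Foxa2 peaks. *Igf1*, *Igf2*, *Igfbp2* and *Igfbp5* had no T peak in the window. The T motif AGGTGTGA was in none of the 10 T peak windows, beside 4.08% of all T peak windows, and its inner part GGTGTG was in 4, beside 21.4%. The forkhead motif TGTTTAC was in 7 of 29 Foxa2 peak windows, beside 13.8%, and TATTTAC in 4, beside 14.4%. All motifs were searched as exact matches, without variants, on both strands within 100 bp of the summit. Promoter windows of 300 bp from RefSeq (GRCm38.p6) were on hand for 9 of the 10 genes. They held no match to AGGTGTGA, TGTTTAC or TATTTAC, which occur in 1.28%, 3.65% and 3.04% of all such windows. GGTGTG was in the window of 1 gene, *Igfbp4*, beside 19% of all windows.

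**Figure D5:**
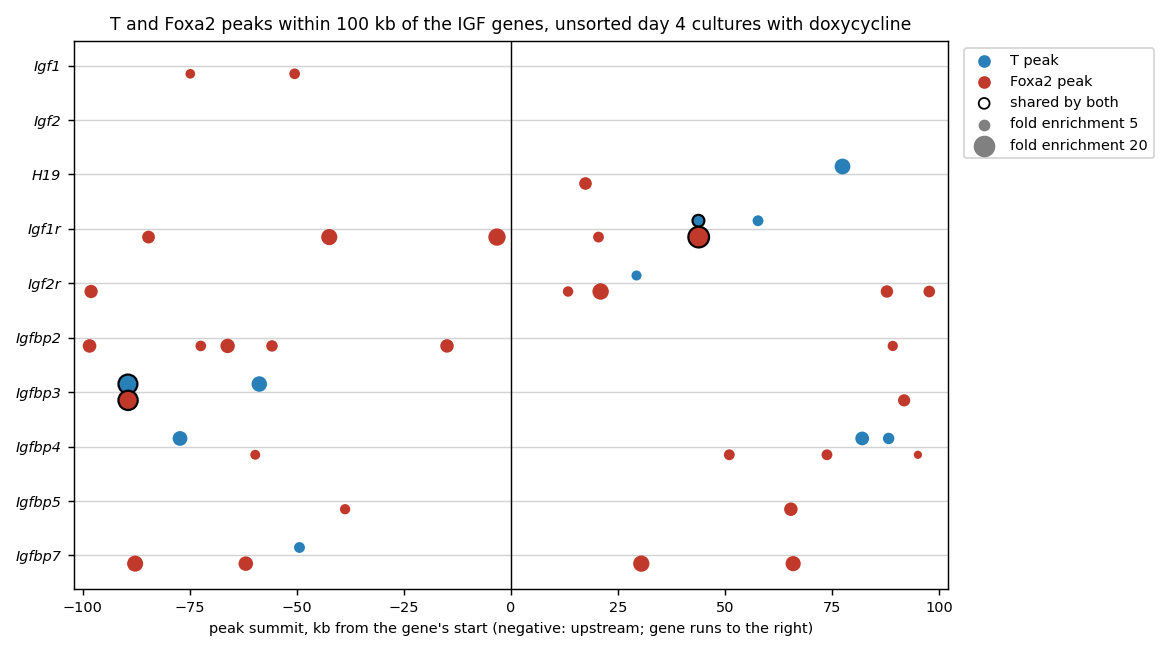
Points give T (blue) and Foxa2 (red) peaks by the distance of their summit from the gene start in kb, negative upstream, for each of 10 IGF genes, with area for fold enrichment and a black rim for peaks shared by both factors. Shared peaks stand at 43.8 kb in *Igf1r* and 89.4 kb upstream of *Igfbp3*, and *Igf2* has no peak in the window.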

How the data were processed

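The members and gene lists were chosen with earlier results of these data known. Of 21 samples, 11 were used, namely 9 RNA-seq and 2 ChIP-seq libraries, with 1 library per group. Per the labels and methods, the authors trimmed RNA reads, aligned them to mm10 with TopHat2 2.1.1, Bowtie 1.2.2 and RefSeq models with a stranded setting, removed duplicates by molecular identifiers, and deposited FPKM values from Cufflinks 2.2.1 without effective length correction. All columns were used (0 left out). The E8.5 MP library came from the fewest cells. For ChIP-seq the authors used Bowtie 1.3.1 and MACS3 3.0.0b1 and kept peaks with a q-value up to 0.1. The authors' lists, as deposited, give fold enrichment (a ratio) and −log10 q. No control library is named in the sources used here.

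Ratios were formed as log2(FPKM + 1) with a 3-fold rule, and understate changes of low genes. Plain ratios are of FPKM, and intervals come from whole fragment numbers. For these, the commonest ratio between a pair of libraries of the embryonic or of the cultured set was taken as the ratio of the worth of 1 fragment. It was read among genes in the lowest 10% of nonzero values of both. Between E8.5 NotoPs and NotoPdiff the commonest ratio was 6.46, but candidates up to 19.4 were tried and 19.4 was kept. It left the most of 50 low genes without a common factor in their fragment numbers (31 embryonic, 23 cultured). All fragment numbers rest on this choice. A gene's numbers are the smallest that bring all its values within 0.05 of whole numbers, so true numbers may be multiples. Mapped read totals that the study lists for the embryonic libraries were not used here, and the relative depths, read from the FPKM steps, need not equal the ratios of those totals. The common ratio and the whole numbers were tested on simulated libraries of 1 set. The link between embryonic and cultured libraries was not simulated.

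Genes were placed by symbol in GENCODE M21 (GRCm38, 22730 of 23983). No peak ran past a GRCm38 chromosome end (0 peaks). The gene start is the outermost annotated end. Peaks were shared when they overlapped by 1 bp. The 10 members were always named. Other pathway or imprinted genes were named when 3-fold apart between NotoP and MP at both stages or in culture, the 3 nearest genes by likeness were found for each member, and peaks named were the strongest and shared ones. The sequence of 1 peak near *Igfbp2* is not reported here. All printed sequences were chosen after values were seen (the shared peaks, and the strongest peak in the *Igfbp5* window), as were genes said so. Alternatives changed the pseudocount (0.1, 5), scaling, an FPKM minimum of 5, the fold (2), the E8.5 MP library, and the peak window, q and overlap. The other samples were not used here. Python 3.11.15 with pandas 2.3.3 and numpy 2.4.6 served for all calculations.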

Additional observations from a re-analysis of the deposited data

Results flagged for a closer look

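With 1 library per group, the ratios below point in opposite directions in 2 stages, populations or settings, and none of these differences was tested. All are log2 ratios of FPKM + 1.

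*Igfbp3* had the largest contrasts. NotoPs over MPs gave 2.02 at E8.5 and −0.48 at E9.5, while NotoPdiff over MPdiff gave 1.98. Trunk notochord over NotoPs gave 0.26 at E8.5 and −1.99 at E9.5. From E8.5 to E9.5 the ratio was −0.086 in NotoPs, 2.40 in MPs and −2.34 in trunk notochord. The E8.5 MP and E9.5 trunk notochord values rest on 1 fragment each.

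*H19* gave −0.71 from E8.5 to E9.5 in NotoPs, against 0.11 in MPs and 0.071 in trunk notochord, on 2 to 31 fragments. *Igfbp4* gave −0.085 over the same interval in NotoPs, against 0.093 in MPs and 1.08 in trunk notochord. *Igf1r* gave −0.12 and −0.23 for NotoPs over MPs at E8.5 and E9.5, against 0.19 for NotoPdiff over MPdiff.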

How the results depend on the processing

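No paired analysis was possible because every group has 1 library, and for the same reason no library could be left out within a group. Of 64 recomputed counts of genes, 49 stayed within 1.5 times of the reported count. All those under median-of-ratios scaling, the minimum of 5 FPKM, E9.5 MPs for E8.5 MPs and the q of 0.001 were among them. A change of exactly 1.5 times counted as within. Such changes included 9 to 6 genes with a Foxa2 peak within 50 kb, and 3 to 2 genes with E9.5 MPs for E8.5 MPs. Genes with a T peak in the interval between neighbouring protein-coding genes numbered 4 in place of 6. With a pseudocount of 0.1 the count of genes past 3-fold changed from 3 to 5 for NotoP over MP at E8.5, from 2 to 4 for trunk notochord over NotoP at E8.5, and from 1 to 2 for E9.5 over E8.5 in MP. With a pseudocount of 5 it changed from 5 to 2 for NotoP over MP at E9.5, from 2 to 1 for trunk notochord over NotoP at E8.5, and from 5 to 2 for the same at E9.5. It also changed from 1 to 0 for E9.5 over E8.5 in NotoP and in MP, and from 2 to 1 in trunk notochord. Under a 2-fold rule it changed from 3 to 5 for NotoP over MP at E8.5, from 3 to 5 for NotoPdiff over NMPdiff and from 1 to 3 for E9.5 over E8.5 in MP. Genes with a T peak numbered 3 in place of 6 within 50 kb, and genes with a shared peak 1 within 50 kb and 4 within 250 kb in place of 2. A larger pseudocount shrinks ratios of low genes by construction. No ratio of a single gene between NotoP and MP, or NotoPdiff and MPdiff, reversed under another pseudocount or scaling. However, 6 recomputed ratios crossed the 3-fold line and 72 did not. With a pseudocount of 5, *H19*, *Igfbp4* and *Igfbp7* at E9.5 fell within 3-fold, as did *Igfbp3* at E8.5 and in culture (1.98 to 1.56). With a pseudocount of 0.1, *H19* at E8.5 passed it. *Igfbp2* and *Igfbp5* kept their calls in all 3 comparisons. Depth limits *H19*, *Igfbp3* and *Igfbp7* in the embryo most.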
